A study of Homo sapiens with 6 samples.

Results

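The proteasome genes described here are the 48 protein-coding genes of the proteasome and of its immediate regulators, out of 60664 genes in the deposited count table. They were taken by symbol, as every gene named PSMA, PSMB, PSMC or PSMD together with PSME1 to PSME4, PSMF1, PSMG1 to PSMG4 and POMP. The immunoproteasome genes PSMB8 and PSMB9, and pseudogenes, were left out. mRNA had been sequenced from 6 libraries of HCT8, a human colorectal cancer cell line kept in DMEM with fetal bovine serum. The cells of 3 libraries, labelled WT, had received a control plasmid and those of the other 3 a plasmid for overexpression of GPT1, the cytosolic alanine aminotransferase encoded by GPT. The labels name no time after transfection, plasmid promoter or selection of transfected cells. They do not say whether replicates were separate cultures, so that p-values measure only the spread between these libraries, which may be technical. The series was aimed at signalling pathways that GPT1 controls.

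The proteasome degrades ubiquitin-tagged proteins. Its barrel-shaped core particle is built from stacked rings of alpha subunits, which gate the entry, and beta subunits, of which PSMB5, PSMB6 and PSMB7 carry the peptide-cutting sites. The regulatory particle caps the core. Its base contains a ring of ATPases that unfold the substrate, and its lid holds the deubiquitinating enzyme PSMD14. Dedicated chaperones guide the assembly and leave before, or are consumed by, the finished particle. When proteasome activity is short, the transcription factor NFE2L1 is cleaved into an active form and raises the transcription of subunit genes together, so that in many cell types their mRNAs move in concert. PSMC3IP, taken by its symbol alone, encodes a recombination cofactor and is no part of the proteasome.

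Total counts per library lay between 21255655 (control replicate 3) and 32487217 (control replicate 1). GPT had 0.286 ± 0.153 CPM (SD, n = 3) in the control libraries and 3344 ± 152 CPM (SD, n = 3) in the GPT1 libraries, as labelled. CPM is the number of counts per 1000000 counts of the library, whose size was first scaled by TMM, a factor that evens out library composition. Of 12 markers of colorectal epithelium 9 could be tested, and KRT20, CDX1 and GPA33 were too low to test, with at most 0.450 CPM in any library. 8 of the 9 fell with GPT1, and the summed markers went from 886 to 1039 CPM in the controls to between 562 and 633 CPM in the GPT1 libraries. Of 7 markers of neural and kidney lines 3 fell, their sum going from 467 to 555 CPM to between 254 and 262 CPM, most of it NEFM. Fibroblast markers summed to 50.5 to 53.7 and 60.8 to 62.3 CPM, and ACTA2 and LUM rose among the 5 of 8 tested. Leukocyte markers summed to at most 2.86 CPM, with PTPRC at 0 in 4 libraries. Endothelial, erythroid and hepatocyte markers summed to at most 0.950, 1.14 and 0.611 CPM, with HBB at 0 in all 6 libraries. These markers moved in the same libraries as the proteasome genes below, and their part in those results was not tested. In bulk RNA, fewer cells of a type and less RNA per cell cannot be told apart.

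Proteasome genes were higher in the GPT1 libraries, by small amounts and in most parts of the particle. 17 of the 46 tested members rose (37.0%), whereas 10.5% of all 17638 tested genes did (edgeR quasi-likelihood test, adjusted p under 0.05 over all genes). 3 members fell (6.52%, against 14.6% of all genes), namely PSMD5, PSME4 and the unrelated PSMC3IP, and 26 did not pass. The median log2 fold change of the 46 was 0.25, that of all tested genes -0.02, and 40 of the 46 had a positive value, as did 47.8% of all genes. Summed over the 48 members, the level was 5734, 6114 and 5576 CPM in the control libraries and 7016, 6580 and 6995 CPM in the GPT1 libraries. All 3 GPT1 sums lay above all 3 control sums. In 30 of the 46 (65.2%) every GPT1 library stood above every control library, a pattern found in 21.2% of all tested genes, and 13 of these 30 did not pass the test.

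**Figure D1:**
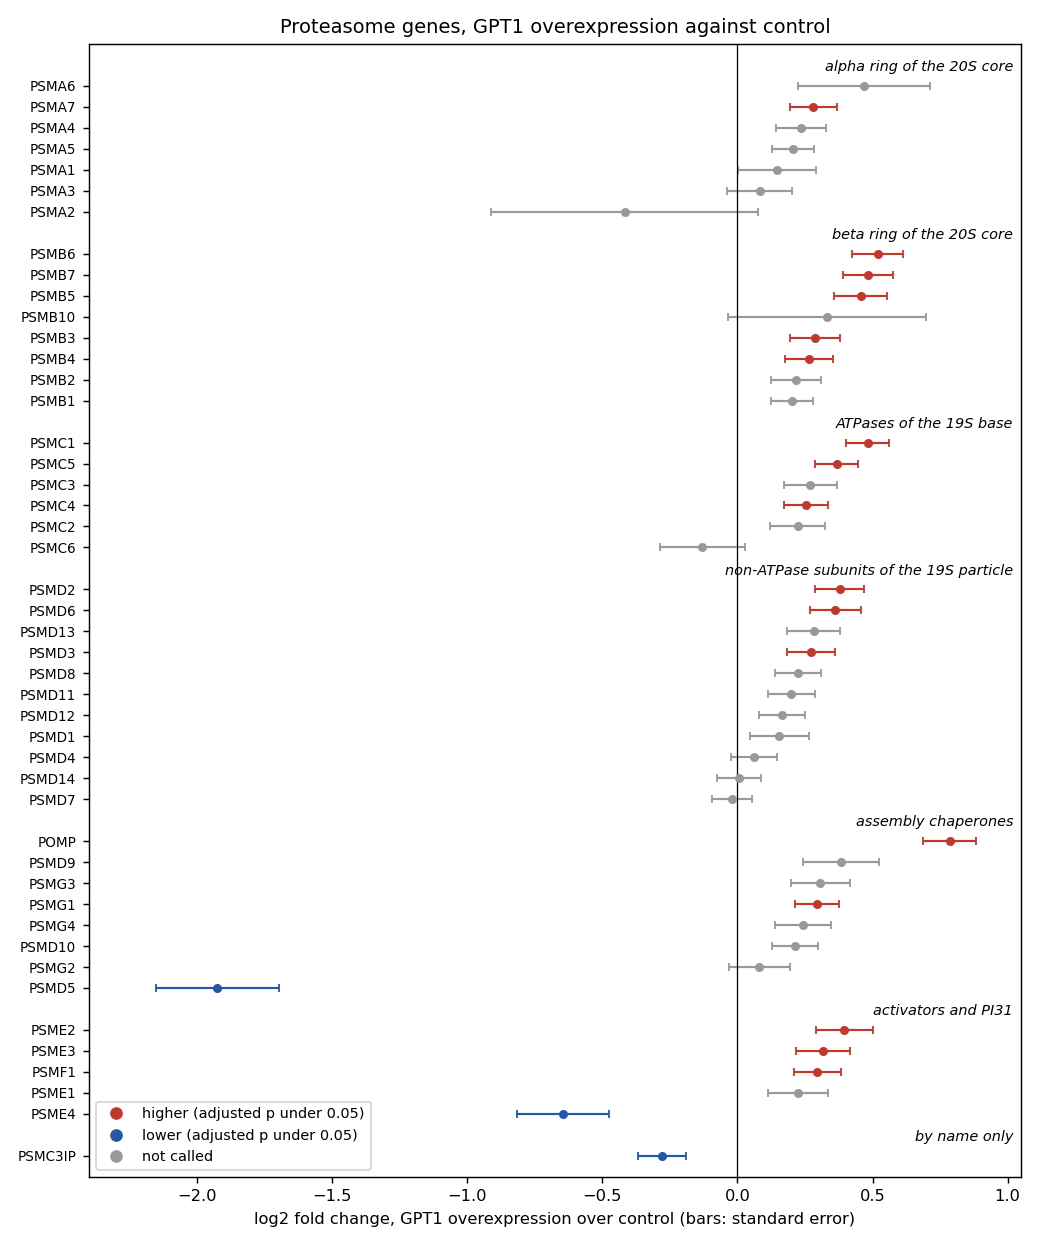
Log2 fold change of each tested member (x axis, GPT1 overexpression over control, bars are standard errors) grouped by role, coloured by the edgeR call at an adjusted p of 0.05. Most members lie between 0 and 0.5, with POMP at 0.79, PSME4 at -0.64 and PSMD5 at -1.92 standing apart.

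The rises were small for single genes. Among the 17 that rose, log2 fold changes ran from 0.26 to 0.79 with a median of 0.36, and only POMP passed 1.5-fold. Across all genes that rose the median was 0.50. 5 of the 20 calls, those of POMP, PSMB6, PSMB7, PSMC1 and PSMD5, were kept when any 1 library was left out. The share of the 4430 calls among all tested genes that were kept in this way was not determined. PSMA7, PSMB3, PSMB4, PSMC4, PSMD3 and PSME3 each lost their call in 4 of the 6 such fits, without control replicate 1 or 3 or GPT1 replicate 1 or 3 (highest adjusted p = 0.173, 0.161, 0.169, 0.180, 0.173 and 0.166). Without GPT1 replicate 3 there were 4 rises, without GPT1 replicate 1 there were 5 and without control replicate 1 there were 7, whereas the median of the members stayed at 0.24, 0.23 and 0.27. All tested genes lost calls too in those fits, with rises at 3.39%, 3.58% and 5.48% of genes. Of the 3 falls, only that of PSMD5 was kept without GPT1 replicate 1 or without GPT1 replicate 3, where 5.22% and 4.59% of all genes fell.

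The promoters of the members at the extremes are shown, together with those of a 19S and a 20S gene that rose and hold the recognition core of NFE2L1 and NFE2L2. Each is a RefSeq window of 300 bases on GRCh38.p14, from 250 bases before the annotated start to 50 after it, written 5′ to 3′ on the strand of the gene. Capitals mark TGACNNNGC, the core searched for NFE2L1 and NFE2L2, and CCAAT, the core of the NF-Y site, each on both strands. The windows lie at chr9:120842873-120843172 (PSMD5, minus strand), chr2:53970944-53971243 (PSME4, minus strand), chr13:28658880-28659179 (POMP, plus strand), chr17:39980557-39980856 (PSMD3, plus strand) and chr17:38752491-38752790 (PSMB3, plus strand).
PSMD5: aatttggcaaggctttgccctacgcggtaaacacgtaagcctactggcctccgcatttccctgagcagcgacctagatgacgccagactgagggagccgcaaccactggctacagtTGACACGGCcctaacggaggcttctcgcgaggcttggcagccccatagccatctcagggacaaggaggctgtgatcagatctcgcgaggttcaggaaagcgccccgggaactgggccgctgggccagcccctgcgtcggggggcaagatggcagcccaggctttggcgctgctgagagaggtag
PSME4: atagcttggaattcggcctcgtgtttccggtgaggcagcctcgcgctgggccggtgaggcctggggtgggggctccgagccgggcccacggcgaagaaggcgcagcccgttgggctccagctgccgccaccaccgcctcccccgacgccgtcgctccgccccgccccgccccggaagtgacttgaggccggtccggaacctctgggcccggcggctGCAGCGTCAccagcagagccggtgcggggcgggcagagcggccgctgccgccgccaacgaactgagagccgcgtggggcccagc
POMP: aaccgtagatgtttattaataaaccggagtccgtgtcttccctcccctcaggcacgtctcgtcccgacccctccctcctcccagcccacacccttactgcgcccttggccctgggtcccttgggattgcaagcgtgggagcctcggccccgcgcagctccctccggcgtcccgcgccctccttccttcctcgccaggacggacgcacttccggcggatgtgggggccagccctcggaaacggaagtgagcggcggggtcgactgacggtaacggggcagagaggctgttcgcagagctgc
PSMD3: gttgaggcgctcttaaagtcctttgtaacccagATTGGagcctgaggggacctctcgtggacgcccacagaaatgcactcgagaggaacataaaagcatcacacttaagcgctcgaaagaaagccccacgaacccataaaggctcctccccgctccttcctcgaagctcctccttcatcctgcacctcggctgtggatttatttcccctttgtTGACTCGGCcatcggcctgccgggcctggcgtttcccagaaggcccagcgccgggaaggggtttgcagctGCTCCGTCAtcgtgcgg
PSMB3: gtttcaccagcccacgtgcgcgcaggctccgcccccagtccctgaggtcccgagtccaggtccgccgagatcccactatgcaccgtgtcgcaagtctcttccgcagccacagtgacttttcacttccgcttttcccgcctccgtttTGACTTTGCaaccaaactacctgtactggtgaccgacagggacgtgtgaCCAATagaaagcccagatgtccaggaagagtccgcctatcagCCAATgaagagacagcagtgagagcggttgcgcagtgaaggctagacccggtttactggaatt

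PSMD5 and PSME4, which fell, each hold 1 copy of TGACNNNGC, beginning 134 and 34 bases before the start. POMP, the gene with the largest rise, holds neither motif in its window. PSMD3 and PSMB3, which rose, hold both. RefSeq windows were matched for 42 of the 48 members, the others being PSMA7, PSMB1, PSMB6, PSMB7, PSMD4 and PSMG3. TGACNNNGC occurred in 14 of the 42 (33.3%) and in 16.1% of the 27305 genes with a window in the table, and CCAAT in 20 of the 42 (47.6%) and 39.7% of all. In the windows of the members no match of one motif overlapped a match of the other. Members with TGACNNNGC rose in 6 of 14 cases and fell in 2, with a median log2 fold change of 0.25, and tested members without it rose in 8 of 26 and fell in 1, with a median of 0.23. A match is a string of letters and no shown binding site.

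The alpha ring, which gates the core, contained 7 tested genes, of which 1 rose. PSMA7 (chromosome 20, 62136735 to 62143440) stood at 250, 261 and 231 CPM in the controls and 328, 280 and 294 CPM in the GPT1 libraries. The groups did not overlap, and the log2 fold change was 0.28 ± 0.09 (SE, edgeR adjusted p = 0.0391), but 0.10 and no longer called after correction for transcript length and GC content (adjusted p = 0.169). PSMA5 and PSMA4 also separated the groups without passing, at 142 ± 7.69 against 163 ± 4.76 CPM and 169 ± 17.9 against 200 ± 7.85 CPM (SD, n = 3 each; edgeR adjusted p = 0.0772 and 0.0806). After the correction both were called, at 0.51 and 0.43 (edgeR adjusted p = 0.00394 and 0.00187), so that 4 of the 7 alpha genes, with PSMA3 (0.26) and PSMA6 (0.79), were higher. The share of all genes called higher was 10.5% without the correction and 19.8% with it. Without it PSMA3 overlapped between the groups, at 60.3 to 83.3 CPM in the controls and 69.2 to 78.6 CPM with GPT1. PSMA8, the testis form of PSMA7, was at 0 counts in the controls and had at most 0.0655 CPM in a GPT1 library, below the expression filter.

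PSMA1, PSMA2 and PSMA6, obligatory ring members, were counted at a small fraction of the level of their neighbours. PSMA2 was counted 6, 21 and 18 times in control libraries and 10, 15 and 12 times with GPT1. For PSMA6 the control libraries held 50, 47 and 28 counts and the GPT1 libraries 83, 56 and 46, and PSMA1 stood at 7.38 ± 0.303 and 8.17 ± 1.34 CPM (SD, n = 3). None of the 3 passed the edgeR test (adjusted p = 0.554, 0.173 and 0.475), whereas with the length and GC correction PSMA6 was called, its log2 fold change going from 0.47 to 0.79 (adjusted p = 0.0428). Of their coding bases in GENCODE 29, 97.1% (PSMA2), 70.4% (PSMA6) and 88.6% (PSMA1) also lie in exons of a second protein-coding gene on the same strand, and that second gene had at most 2 counts in any library. The other 4 constitutive alpha genes share none. Across all protein-coding genes of the table, the median level was 12.1 CPM for 17980 genes that share no coding base in this way and 0.034 CPM for 1220 genes that share over 50%. The pseudogene PSMA6P1 held 124, 132 and 79 counts in the controls and 116, 104 and 93 with GPT1, more than PSMA6 in every library. Whether reads of PSMA6 were assigned to it was not tested. The counts of these 3 genes are therefore uncertain, and the labels do not say how reads shared between genes were treated.

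**Figure D2:**
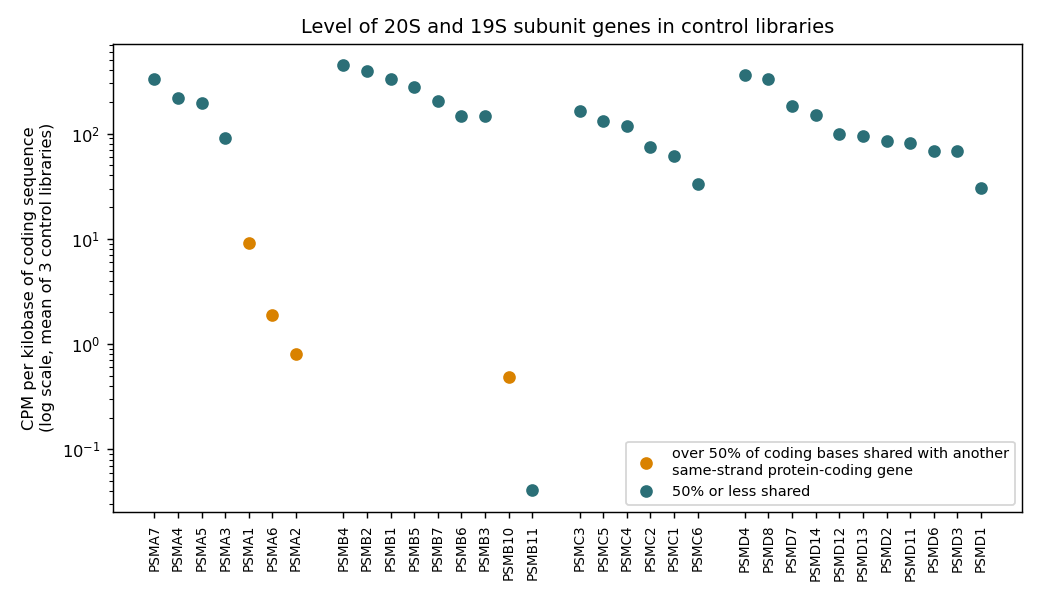
Level of 20S and 19S subunit genes in the control libraries (y axis, log scale, mean CPM per kilobase of coding sequence over 3 libraries), by part of the particle. PSMA8, at 0 counts, is not drawn. PSMA1, PSMA6, PSMA2 and PSMB10, which share over 50% of their coding bases with another gene, lie at 9.15 or below, and the constitutive subunit genes that share none at 30.5 or above.

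In the beta ring 5 of 8 tested genes rose, against 10.5% of all tested genes. All 3 genes of the cutting sites rose. PSMB6 (chromosome 17, 4796144 to 4798503), the caspase-like site, stood at 109, 111 and 98.0 CPM in the controls and 159, 135 and 161 CPM with GPT1, a log2 fold change of 0.52 ± 0.10 (SE, edgeR adjusted p = 0.00524). PSMB7 (chromosome 9, 124353466 to 124415444), the trypsin-like site, went from 172, 182 and 154 CPM to 242, 216 and 252 CPM, a log2 fold change of 0.48 ± 0.09 (SE, edgeR adjusted p = 0.00625). PSMB5 (chromosome 14, 23016543 to 23035230), the chymotrypsin-like site and the target of proteasome inhibitors, went from 220, 235 and 194 CPM to 310, 268 and 313 CPM, a log2 fold change of 0.46 ± 0.10 (SE, edgeR adjusted p = 0.00985, and 0.0569 without GPT1 replicate 3). In each of the 3, GPT1 replicate 2 was the lowest GPT1 library and still above every control. The length and GC correction lowered the 3 log2 fold changes to 0.33 (PSMB6), 0.32 (PSMB7) and 0.29 (PSMB5), all still called (edgeR adjusted p = 0.00262, 0.00404 and 0.00451).

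Of the 4 structural beta genes 2 rose, against 10.5% of all tested genes. PSMB3 (82.5 to 99.1 CPM in the controls, 104 to 116 CPM with GPT1) and PSMB4 (333 to 388 and 395 to 442 CPM) rose with log2 fold changes of 0.29 and 0.27 (edgeR adjusted p = 0.0442 and 0.0479), and neither was called after the length and GC correction (0.09 and 0.19). PSMB1 and PSMB2 did not pass, at 0.20 and 0.22 (edgeR adjusted p = 0.0739 and 0.104), although no library of one group fell among those of the other, and both were called with the correction, at 0.30 and 0.35 (adjusted p = 0.0263 and 0.0191), against 0.29 to 0.33 for the cutting-site genes. The level of the 3 cutting-site genes relative to the 4 structural ones, as a ratio of summed CPM, was 0.545, 0.535 and 0.522 in the controls and 0.634, 0.603 and 0.655 with GPT1. The ratio, which carries no length or GC correction, was higher in every GPT1 library. PSMB10, the immunoproteasome counterpart of PSMB7, was barely counted (control counts 17, 14 and 5, GPT1 counts 15, 18 and 15), and 58.3% of its coding bases lie in another gene's exons. The thymus subunit gene PSMB11 had at most 0.0635 CPM in any library. PSMB8, outside the members, fell from 2.96 ± 0.344 to 1.39 ± 0.319 CPM and PSMB9 likewise from 1.82 ± 0.172 to 0.791 ± 0.312 CPM (SD, n = 3; edgeR adjusted p = 0.00664 and 0.0161).

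**Figure D3:**
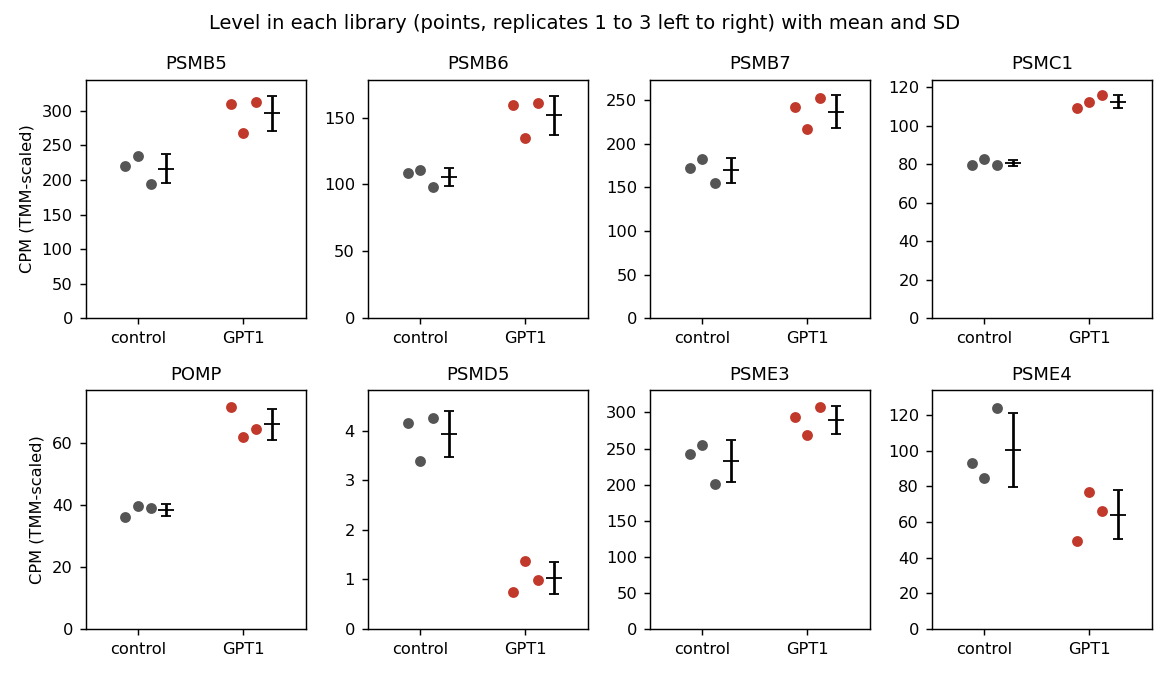
CPM of 8 members in each library (y axes start at 0, points are replicates 1 to 3, the bar beside them is the mean with its SD). The GPT1 points lie above all control points for PSMB5, PSMB6, PSMB7, PSMC1, POMP and PSME3 and below them for PSMD5 and PSME4.

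In the ATPase ring of the 19S base 3 of 6 genes rose, against 10.5% of all tested genes. PSMC1 (chromosome 14, 90256495 to 90275429) showed the tightest separation, at 79.6, 82.4 and 79.3 CPM in the controls and 109, 112 and 116 CPM with GPT1 (log2 fold change 0.48 ± 0.08 SE, edgeR adjusted p = 0.00289). Its exons share 4671 bases with the opposite-strand gene NRDE2, and the labels do not say whether counting used strand. PSMC5 (chromosome 17, 63827152 to 63832026) stood at 160, 172 and 154 CPM against 217, 201 and 208 CPM (0.37 ± 0.08 SE, edgeR adjusted p = 0.0107). It shares 874 bases with the opposite-strand FTSJ3. Its call ended without GPT1 replicate 1 or 3 (edgeR adjusted p = 0.0549 and 0.0566). PSMC4 rose from 148, 156 and 137 CPM to 175, 169 and 183 CPM (0.26 ± 0.08 SE, edgeR adjusted p = 0.0424), and the length and GC correction took it to 0.11 without a call. PSMC3 stood at 218, 244 and 190 CPM against 271, 245 and 270 CPM (0.27 ± 0.10 SE, edgeR adjusted p = 0.0654). PSMC2 was at 0.22 and, called with the correction, at 0.45 (adjusted p = 0.000662), and PSMC6 at -0.13, its control replicate 3 (50.4 CPM) lying above all GPT1 libraries (32.0 to 42.0 CPM).

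Of the 11 non-ATPase genes of the 19S particle, 3 rose and 8 did not pass. With the length and GC correction 8 of the 11 were called higher, while the share of all genes went from 10.5% to 19.8%. PSMD2 (chromosome 3, 184298709 to 184309054), a scaffold of the base, went from 243, 249 and 205 CPM to 306, 286 and 315 CPM (0.38 ± 0.09 SE, edgeR adjusted p = 0.0167). The lid gene PSMD6 (chromosome 3, 64010549 to 64024010) went from 80.4, 97.2 and 96.8 CPM to 115, 119 and 119 CPM (0.36 ± 0.09 SE, edgeR adjusted p = 0.0201). Both groups stood apart in each gene, and both calls ended without GPT1 replicate 1 (edgeR adjusted p = 0.0647 and 0.0620) or GPT1 replicate 3 (0.0824 and 0.0848), that of PSMD6 also without control replicate 1 (0.0695). The lid gene PSMD3 rose from 114, 116 and 98.9 CPM to 139, 127 and 131 CPM (0.27 ± 0.09 SE, edgeR adjusted p = 0.0470). PSMD13, another lid gene, stood at 106, 119 and 95.2 CPM against 138, 122 and 130 CPM and did not pass (0.28 ± 0.10 SE, edgeR adjusted p = 0.0561). PSMD8, PSMD11, PSMD12 and PSMD1 lay between 0.15 and 0.22. With the correction PSMD12 (0.49), PSMD11 (0.24), PSMD1 (0.24) and PSMD13 (0.20) were called and PSMD8 (0.08) was not (edgeR adjusted p = 0.000614, 0.0150, 0.0395, 0.0472 and 0.323), and PSMD6 went from 0.36 to 0.67.

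The genes of the lid's deubiquitinase, its partner and the ubiquitin receptor had fold changes near 0. PSMD14 stood at 132, 134 and 150 CPM in the controls and 139, 142 and 136 CPM with GPT1 (0.01 ± 0.08 SE). PSMD7, whose product forms a dimer with PSMD14, stood at 177 ± 3.54 and 175 ± 4.27 CPM (-0.02 ± 0.07 SE). PSMD4, a ubiquitin receptor, stood at 411 ± 26.2 and 429 ± 31.1 CPM (0.06 ± 0.09 SE; SD over n = 3 throughout). In all 3 genes the groups overlapped. The length and GC correction left PSMD7 and PSMD4 uncalled at -0.08 and -0.10 but moved PSMD14, whose longest transcript has a GC content of 32.0%, to 0.49 (edgeR adjusted p = 0.00415). It used that longest transcript, of 4890 bases, whereas the median over the basic GENCODE coding transcripts of PSMD14 is 1954. Whether the longest transcript is the one expressed was not tested.

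The assembly chaperones held both extremes. POMP (chromosome 13, 28659104 to 28678925), which recruits beta subunits and is degraded by the finished core, stood at 36.1, 39.6 and 39.0 CPM in the controls and 71.4, 61.9 and 64.3 CPM with GPT1. This was a 1.72-fold rise (log2 fold change 0.79 ± 0.10 SE, edgeR adjusted p = 0.000585), and 3.91% of all tested genes had a log2 fold change as high or higher. It was kept without any 1 library (adjusted p up to 0.00649) and was 1.01 after the length and GC correction. PSMG1, part of the heterodimer that starts the alpha ring, rose from 122, 133 and 117 CPM to 154, 147 and 156 CPM (0.29 ± 0.08 SE, edgeR adjusted p = 0.0265), and its call ended when control replicate 1, or either of GPT1 replicates 1 and 3, was left out (0.0795, 0.0967 and 0.120). Its partner PSMG2 overlapped between the groups (19.6 to 23.6 and 22.1 to 23.0 CPM). PSMG3 stood at 93.2, 93.8 and 76.8 CPM against 121, 98.0 and 108 CPM and did not pass (0.31 ± 0.11 SE, edgeR adjusted p = 0.0594), nor did its partner PSMG4 (0.24 ± 0.10 SE). Both were called with the correction, at 0.17 and 0.27 (adjusted p = 0.0468 and 0.0140).

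PSMD5, PSMD9 and PSMD10 hold the ATPases apart until the base is built. PSMD10 was abundant (164 ± 13.4 and 190 ± 7.95 CPM; SD, n = 3) and did not pass (edgeR adjusted p = 0.0858; 0.27 and called with the correction, adjusted p = 0.00731), and PSMD9 stood at 5.66 ± 0.572 and 7.37 ± 0.666 CPM (adjusted p = 0.0663), with 58.7% of its coding bases in exons of another gene. PSMD5 (chromosome 9, 120815496 to 120842984, minus strand) was scarce and fell further. Its counts were 136, 107 and 92 in control libraries and 23, 42 and 30 with GPT1, or 4.15, 3.40 and 4.25 against 0.740, 1.38 and 0.980 CPM. The highest GPT1 library lay below the lowest control library. The log2 fold change was -1.92 ± 0.23 (SE, edgeR adjusted p = 0.000488), a 3.79-fold fall that 0.816% of tested genes matched or passed. It stayed called without any 1 library (adjusted p up to 0.00445) and after the length and GC correction (-1.76).

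The genes around PSMD5, looked up after its values were seen, did not move as one. CUTALP, a transcribed pseudogene on the opposite strand (chromosome 9, 120824828 to 120854385) that spans the PSMD5 start site and shares no exon base with it, also fell, from 46, 44 and 23 counts to 9, 13 and 9 counts (-1.94 ± 0.30 SE, edgeR adjusted p = 0.00218). PHF19, the next gene beyond it (120855652 to 120894896), rose from 47.3 ± 4.24 to 70.2 ± 2.26 CPM (0.57 ± 0.10 SE, adjusted p = 0.00354). FBXW2, on the other side (120751978 to 120793412), stood at 68.1 ± 7.71 and 58.8 ± 6.79 CPM (SD, n = 3; -0.21, edgeR adjusted p = 0.194; 0.13 and not called with the length and GC correction).

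Among the alternative caps of the core, only PSME4 fell. PSME4 (chromosome 2, 53864067 to 53970840), which encodes PA200, an activator linked to histone turnover, stood at 92.9, 84.5 and 124 CPM in the controls and 49.4, 76.8 and 66.2 CPM with GPT1 (log2 fold change -0.64 ± 0.17 SE, edgeR adjusted p = 0.0218). The groups did not overlap, with control replicate 3 far above the other controls and a value of -0.45 without it. The call ended without GPT1 replicate 1 or 3 (0.0793 and 0.0676). The transcript is the longest of the members (7099 bases), and the length and GC correction left a fall of -0.32 (adjusted p = 0.0129). PSME3, the nuclear PA28 gamma cap, rose from 243, 255 and 200 CPM to 293, 269 and 308 CPM (0.32 ± 0.10 SE, edgeR adjusted p = 0.0423). It shares 300 exon bases with the opposite-strand BECN1.

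The interferon-inducible pair PSME1 and PSME2, which together form the cytosolic PA28 ring and lie beside each other on chromosome 14, both had positive values. PSME2 (24143362 to 24147570) rose from 34.8, 38.3 and 33.2 CPM to 48.0, 42.3 and 49.6 CPM (0.40 ± 0.11 SE, edgeR adjusted p = 0.0227; 0.0686, 0.0880 and 0.114 when control replicate 1, or either of GPT1 replicates 1 and 3, was left out). PSME1 (24136158 to 24138967) stood at 39.4, 36.0 and 31.6 CPM against 42.0, 38.6 and 44.7 CPM and did not pass (0.23 ± 0.11 SE, adjusted p = 0.158; 0.05 with the length and GC correction). PSMF1, which encodes the core-binding protein PI31, rose from 125, 132 and 111 CPM to 153, 146 and 153 CPM (0.30 ± 0.09 SE, edgeR adjusted p = 0.0318; 0.0701, 0.112 and 0.125 in the same 3 fits). PSMC3IP, the recombination cofactor, fell from 68.0, 64.3 and 70.0 CPM to 57.6, 55.4 and 53.6 CPM (-0.28 ± 0.09 SE, edgeR adjusted p = 0.0384), a call kept in 1 of 6 fits that left out a library, and shares 770 exon bases with the opposite-strand MLX.

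Other proteins bound to the proteasome, outside the symbol rule, were split. Of 14 such genes, 2 rose and 1 fell, against 10.5% and 14.6% of all tested genes. The median log2 fold change of the 14 was 0.01. SEM1, a small lid subunit, went from 32.7 ± 3.27 to 42.1 ± 2.22 CPM (SD, n = 3; 0.37 ± 0.11 SE, edgeR adjusted p = 0.0309; 0.74 and 0.000162 with the length and GC correction), and the stress-induced gene ZFAND2A rose by 0.40 (adjusted p = 0.0354; 0.27 and not called after the length and GC correction). UCHL5, a deubiquitinase of the base, was at -0.35 (edgeR adjusted p = 0.0418) but at 0.09 after that correction. With the correction 6 of the 14 were higher, 1 was lower and the median was 0.15, against 19.8% of all genes higher and 14.8% lower. Of the 6 ubiquitin and E1 genes, RPS27A, a fusion of ubiquitin with a ribosomal protein, rose (473 ± 16.7 to 659 ± 51.7 CPM, edgeR adjusted p = 0.00416) and the E1 gene UBA6 fell (70.2 ± 21.4 to 42.2 ± 8.55 CPM, adjusted p = 0.0246; -0.73, and -0.18 without a call after the correction). The list's median was 0.11, and 0.02 with the correction.

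Shuttles that carry ubiquitinated proteins to the proteasome were split. Of 11 genes in the list, which also holds the unfoldase VCP and its cofactors, 2 rose and 3 fell (median -0.04). Of all tested genes 10.5% rose and 14.6% fell. FAF1, a VCP adaptor, fell from 133 ± 2.52 to 99.8 ± 3.27 CPM (SD, n = 3; -0.41, edgeR adjusted p = 0.00588), a fall of -0.21 with the correction (adjusted p = 0.0195, and 0.0575 with the replicate block added). The shuttle genes UBQLN1 (-0.44) and RAD23B (-0.32) fell as well (adjusted p = 0.0111 and 0.0207), and neither was called after the length and GC correction (-0.03 and -0.15). VCP and its cofactor NSFL1C rose by 0.28 each (adjusted p = 0.0282 and 0.0328). With the correction 4 of the 11 were higher and 2 lower (median 0.03), against 19.8% and 14.8% of all genes.

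Among genes that control proteasome transcription, NFE2L1 itself did not pass the test. It stood at 277 ± 23.2 and 289 ± 7.10 CPM (SD, n = 3; edgeR adjusted p = 0.605), a measure of its mRNA and not of its cleavage. Of 14 genes in the list 2 rose and 3 fell (median -0.16), against 10.5% and 14.6% of all tested genes. With the correction 3 were higher and 4 lower (median -0.02), against 19.8% and 14.8% of all genes. KEAP1, the adaptor that marks NFE2L2 for degradation, rose from 106 ± 6.62 to 152 ± 13.4 CPM (0.51 ± 0.09 SE, adjusted p = 0.00474). MAFG, a dimer partner of both factors, rose by 0.48 and the related factor NFE2L3 fell by 0.56 on the log2 scale (adjusted p = 0.00766 and 0.00832). The list's other falls were MAFF (-0.55) and DDI2 (-0.50, the protease that cleaves NFE2L1, and -0.15 without a call after the correction). RPS27A, FAF1, KEAP1, MAFG, NFE2L3, PSMB8 and PSMB9 were called without any 1 library, and the other calls among these related genes were not. NFE2L2 itself overlapped between the groups and did not pass (-0.41, adjusted p = 0.0943; -0.39 and 0.0371 with the correction).

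The libraries differed by the GC content and length of transcripts, within groups as well as between them. Over 17436 genes, the deviation of a library from the mean of all 6 correlated with GC content at -0.52 in control replicate 3, at 0.47 and 0.27 in GPT1 replicates 1 and 3, and between -0.13 and 0.08 in the other 3 (Spearman, across genes, which are not independent replicates). With transcript length the deviation correlated at 0.285, 0.065 and 0.297 in control replicates 1 to 3. In GPT1 replicates 1 to 3 it correlated at -0.377, -0.135 and -0.238, so that the sign of the length trend followed the groups. Over the 17436 genes, log2 fold change correlated with GC content at 0.31 and with length at -0.33. Among the 46 tested members, log2 fold change and GC content correlated at 0.34, and with length at -0.17. After each library was corrected for both trends, 28 members were higher and 3 lower, against 19.8% and 14.8% of all genes, and the median of the members was 0.26. Of the 17 rises 13 were kept, PSMA7, PSMB3, PSMB4 and PSMC4 were lost, and 15 other members passed. All 3 falls were kept. The 3 cutting-site genes, PSMC1 and POMP were called with and without the correction. The correction took length and GC content from each gene's longest transcript. In PSMA4, PSMA6, PSMD6 and PSMG4 this has 4411, 4730, 4583 and 4603 bases, against basic-transcript medians of 944, 895.5, 1389.5 and 775. In PSMB3 (773 and 773) and PSMC4 (1623 and 1462) the lengths are close. How far the corrected values depend on this choice was not tested.

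**Figure D4:**
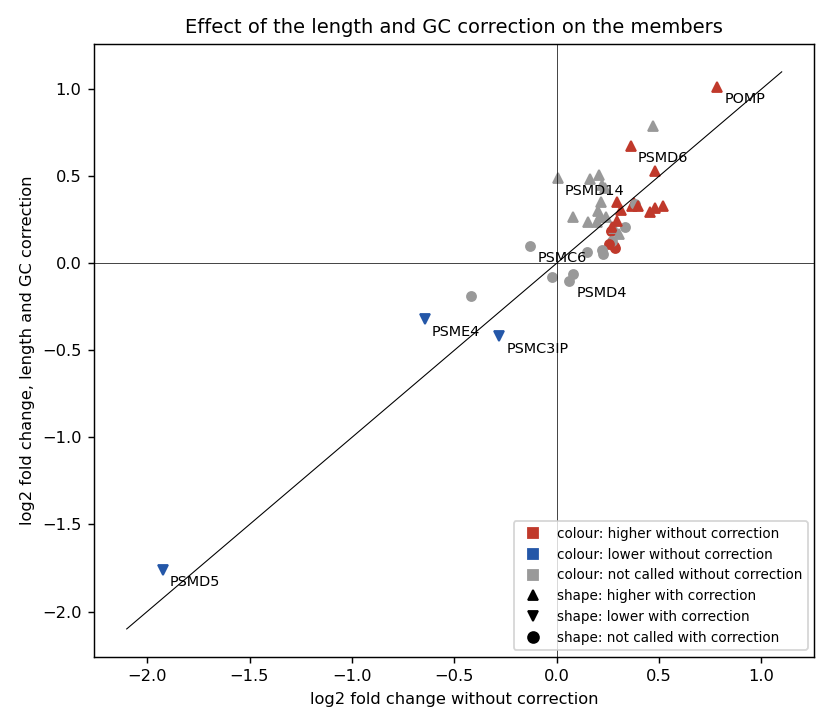
Log2 fold change of each tested member without (x axis) and with (y axis) the correction for transcript length and GC content; colour gives the call without it, shape the call with it, and the diagonal marks equal values. PSMD14 moves from 0.01 to 0.49, PSMC6 from -0.13 to 0.10, and PSMD5, PSME4 and PSMC3IP stay below 0.

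Per length, members of one particle were not counted at one level. In the control libraries, PSMB4 was the most abundant 20S or 19S gene both per kilobase of coding sequence (446 CPM per kb) and per kilobase of the median basic transcript (366 ± 31.3 CPM per kb; SD, n = 3). PSMD4 followed within the leading 3 on both scales (360 and 306 CPM per kb). Among constitutive subunit genes that share no coding bases, PSMC6 (33.4 and 25.4 CPM per kb) and PSMD1 (30.5 and 27.3 CPM per kb) were lowest on both scales, and their transcript-based values differed by less than the spread of PSMC6 (SD 5.58). PSMB2 shows how far the choice of length matters, at 397 CPM per kb of coding sequence and 69.2 CPM per kb of transcript. Among caps, PSME3 exceeded PSME2, PSME1 and PSME4 on both scales (75.5, 43.5, 35.0 and 14.1 CPM per kb of transcript).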

How the data were processed

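The authors deposited raw read counts per Ensembl gene for 6 libraries. Reads had been aligned with HISAT2 2.0 to GRCh38, per the submitters' processing notes. The labels give no counting tool, annotation release or strand setting. Symbols and GENCODE 29 coordinates were joined by identifier. Genes were kept by filterByExpr (17638), scaled by TMM factors and tested with edgeR 4.0.16 in R 4.3.3 (glmQLFTest, two-sided, Benjamini-Hochberg over all tested genes, threshold 0.05); standard errors derive from the F statistic. PSMA8 and PSMB11 did not pass the filter. Replicate pairs differed by 10.8 to 33.7 times counting noise (chi-square per degree of freedom). All 6 libraries were treated as separate samples, although this spread may be technical and does not show separate cultures. Members and gene lists were chosen with earlier results of these data known. Library values are given for up to 4 members per role with the smallest adjusted p, the cutting-site genes, the caps and every fall; of related lists, up to 3 genes. The genes around PSMD5, and VCP, NSFL1C, NFE2L1, NFE2L2, MAFF and DDI2, were named after their values were seen. Lists were described by counts and medians, without a set test. The edgeR test was also run on simulated counts that held no GC or length trend, so that run cannot show how the test behaves under such trends. Alternatives were DESeq2 1.42.0, limma 3.58.1 (voom), other scalings and filters, stricter thresholds, a replicate block, each library left out, and offsets fitted per library on longest-transcript length and GC content (mgcv 1.9.3; 98.9% of tested genes had both). PSM pseudogenes held at most 0.160% of the members' summed counts in any library, although PSMA6P1 held more counts than PSMA6 in each.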

Additional observations from a re-analysis of the deposited data

How the results depend on the processing

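The median log2 fold change of the members lay between 0.23 and 0.30 under every alternative run. The number of members that rose was 17 under no added scaling factors, without GPT in the table, with a minimum mean of 1 CPM, with DESeq2 (16 of the same genes, without PSMB4) and with limma voom, and 18 to 20 with the other scalings and without a filter. It was 3 against a 1.2-fold change, 5 at an adjusted p of 0.01, 9 with the replicate number as a block, 28 with the length and GC correction and 25 with the block and the correction together, and 4 to 20 with 1 library left out. The members that fell numbered 1 against a 1.2-fold change, 1 at an adjusted p of 0.01, and 1 to 3 with 1 library left out. Of all tested genes, 527 were higher and 897 lower against a 1.2-fold change, 491 and 681 at an adjusted p of 0.01, 3500 and 2609 with the length and GC correction, and 2954 higher with the block and the correction, beside 1858 and 2572. With 1 library left out, 613 to 1970 were higher and 830 to 2937 lower. The block alone left 1416 higher (8.03% of all tested genes). RLE and upper-quartile scaling gave 11.5% and 12.5% higher, and the fit without a filter 6.65%. The deviations of same-numbered libraries correlated at 0.14, -0.28 and -0.08, and those of differently numbered libraries between -0.32 and 0.39. These values cannot show whether the replicate numbers mark pairs, since the 3 deviations of a group depend on one another. The sign of single genes changed as follows among those recomputed under every alternative. PSMC6 was 0.10 with the length and GC correction, with or without the block, and -0.24 to 0.072 with 1 library left out. PSMD4 was -0.102 with the correction, both with and without the block, PSMG2 -0.059 and -0.057 with the block, and UCHL5 0.093 and 0.091 with the block. PSMD14 was -0.009 without scaling factors and -0.021 to 0.079 with 1 library left out. PSMD7 was 0.019 with upper-quartile factors and -0.033 to 0.021 with 1 library left out, and PSMA3 was -0.01 to 0.236 with 1 library left out. The fall of PSMC3IP was not called with upper-quartile factors, without a filter, with DESeq2 or with the replicate block (adjusted p = 0.109). Apart from the correction and the left-out libraries, whose own construction changes the trend or the number of samples, the cause of these shifts was not tested. The lowest tested members, PSMA2, PSMB10, PSMA6 and PSMD5, rest on few counts. PSMA2 and PSMB10 were called under none of the alternatives, and the smallest change detectable for them was not determined.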
